A study of Mus musculus with 4 samples.

Results

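The genes of the nuclear pore and of nuclear transport were compared between 2 mouse B-cell lymphoma lines and 2 samples of splenic B cells. The genes were chosen by name alone: every non-control probe whose gene name is Nup, Kpna, Kpnb, Ipo, Xpo or Tnpo followed by a digit, or is Ran, Ranbp1, Rangap1 or Rcc1. This rule found 44 of the 27745 gene names on the array: 20 nucleoporins, 20 transport carriers and 4 genes of the Ran cycle. The rule uses no measured value, although it was written with earlier results of these data known. All 44 genes were well above background on all 4 arrays.

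The lymphoma lines, numbered 1 and 2, came separately from animals with a transgene for dopamine receptor 3, and each was measured on 1 array. The control samples, numbered 1 and 2, were B220+ splenocytes, for which the labels name no transgene. All samples were from animals described as female and of strain C57BL/6N. The promoter of the transgene, the age of the animals, the number of animals behind a splenocyte sample and the passage of the lines are not given in the sources used here. The groups differ at once in transgene, transformation and growth in culture, so the effects of these cannot be told apart. The labels do not say that the splenocyte samples came from separate animals, so the p-values rest on a spread between samples that may be technical.

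The nuclear pore complex is the channel through the nuclear envelope. Its scaffold is built of Y complexes on the outer rings and of an inner ring, its channel is filled with nucleoporins rich in phenylalanine and glycine repeats, and filaments and a basket project to the cytoplasm and the nucleus. Larger cargo crosses it bound to carriers: importin alpha with importin beta, other importins and transportins bring proteins in, and exportins take proteins and RNA out. Direction comes from the small GTPase Ran, which Rcc1 charges with GTP on chromatin and which Rangap1, helped by Ranbp1, discharges in the cytoplasm. Dividing lymphocytes renew pores and move large amounts of ribosomal and mitotic cargo, and Ran also guides spindle assembly once the envelope has broken down.

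Levels are given as relative signal, the processed spot intensity divided by the 75th percentile of its array, which compares arrays for 1 probe and not 1 gene with another. Differences are log2 values, lines minus splenocytes, with the standard error of the limma fit. A gene was called at a Benjamini-Hochberg adjusted p under 0.05 over all 18316 genes tested, and "rose" and "fell" are used only of called genes.

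Promoter windows of 6 genes are shown as a description, and no call rests on them. Kpna2 was the carrier gene with the highest rise among the importin alphas. The windows are those of the 4 Ran cycle genes that the rule takes, of Kpna2 and of Nup188 of the inner ring. They are RefSeq sequences of build GRCm38.p6, each 300 bases long, 250 before and 50 after the annotated start, written 5′ to 3′ on the strand of the gene. Capitals mark matches, on either strand, to 5 short motifs searched: the E-box CACGTG, the ETS motif CCGGAAG, the NF-Y box CCAAT, the E2F motif TTCCCGCC and the NRF1 core GCGCATGC. Ranbp1 is at chr16:18248645-18248944 (minus strand), Rcc1 at chr4:132345701-132346000 (minus), Rangap1 at chr15:81729870-81730169 (minus), Ran at chr5:129019906-129020205 (plus), Kpna2 at chr11:106999476-106999775 (minus) and Nup188 at chr2:30286166-30286465 (plus).
Ranbp1: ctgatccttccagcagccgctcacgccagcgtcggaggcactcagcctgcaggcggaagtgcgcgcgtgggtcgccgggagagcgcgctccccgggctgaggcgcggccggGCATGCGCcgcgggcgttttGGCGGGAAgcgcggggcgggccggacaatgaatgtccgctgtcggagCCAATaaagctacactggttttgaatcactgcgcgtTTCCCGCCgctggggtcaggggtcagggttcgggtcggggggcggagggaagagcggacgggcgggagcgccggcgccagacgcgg
Rcc1: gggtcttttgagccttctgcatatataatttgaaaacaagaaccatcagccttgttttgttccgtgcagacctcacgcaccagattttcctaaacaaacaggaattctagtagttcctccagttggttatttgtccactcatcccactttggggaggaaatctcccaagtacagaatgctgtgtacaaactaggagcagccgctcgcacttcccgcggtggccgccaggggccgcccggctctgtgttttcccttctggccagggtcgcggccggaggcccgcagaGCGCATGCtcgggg
Rangap1: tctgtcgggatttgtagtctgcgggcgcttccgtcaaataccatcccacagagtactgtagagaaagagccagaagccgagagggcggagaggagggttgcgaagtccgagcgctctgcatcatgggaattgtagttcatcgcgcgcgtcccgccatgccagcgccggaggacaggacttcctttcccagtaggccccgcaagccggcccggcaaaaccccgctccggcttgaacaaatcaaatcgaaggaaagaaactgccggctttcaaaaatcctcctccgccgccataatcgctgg
Ran: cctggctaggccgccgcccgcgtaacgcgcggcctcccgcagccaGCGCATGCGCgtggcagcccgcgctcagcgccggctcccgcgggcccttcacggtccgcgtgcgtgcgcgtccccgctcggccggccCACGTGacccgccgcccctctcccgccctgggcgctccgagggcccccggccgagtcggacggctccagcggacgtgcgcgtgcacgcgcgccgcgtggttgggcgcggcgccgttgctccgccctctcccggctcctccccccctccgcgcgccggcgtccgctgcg
Kpna2: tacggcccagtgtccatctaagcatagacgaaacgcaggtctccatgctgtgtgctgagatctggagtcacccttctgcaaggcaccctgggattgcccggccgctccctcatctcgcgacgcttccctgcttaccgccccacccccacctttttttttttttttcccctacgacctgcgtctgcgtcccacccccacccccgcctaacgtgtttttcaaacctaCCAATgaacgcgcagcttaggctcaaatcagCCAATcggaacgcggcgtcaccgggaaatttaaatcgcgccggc
Nup188: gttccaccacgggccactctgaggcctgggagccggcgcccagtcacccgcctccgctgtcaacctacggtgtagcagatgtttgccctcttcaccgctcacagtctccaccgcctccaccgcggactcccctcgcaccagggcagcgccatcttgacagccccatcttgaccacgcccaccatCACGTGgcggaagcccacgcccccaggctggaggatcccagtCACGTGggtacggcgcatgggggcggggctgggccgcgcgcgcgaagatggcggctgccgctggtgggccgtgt

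The Ranbp1 window held an NRF1 core 139 bases before the start, E2F motifs 119 and 36 bases before it and an NF-Y box 72 bases before it. The Ran window held an NRF1 core on both strands, from 205 bases before the start, and an E-box 118 bases before it. The Rcc1 window held an NRF1 core 36 bases after the start. The Kpna2 window held an NF-Y box 25 bases before the start and another just after it, and the Nup188 window had E-boxes 66 and 24 bases before the start. None of the 5 motifs matched in the Rangap1 window, nor in that of Nup205, the inner ring gene with the highest rise, which is not shown. This says only that these letters are not there.

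The table of promoters matched 35 of the 44 genes, with 41 windows. Kpna1, Kpna3, Kpna6, Nup210l, Nup35, Nup43, Nup85, Xpo4 and Xpo7 were not matched. The NRF1 core was in 7 of these 41 windows (17.1%: Nup107, Nup50, Nup62, Ran, Ranbp1, Rcc1 and Xpo5), against 2.71% of all 32851 windows of the same length. All but that of Nup50 belonged to genes that rose. The E-box was also in 17.1% of them, against 7.15% of all windows, and the ETS motif also in 17.1%, against 8.86%. The NF-Y box was in 51.2% of them, against 37.4%, and the E2F motif in 7.32%, against 2.19%. No match of one motif overlapped a match of another. All 7 windows with the ETS motif belonged to genes that rose (Ipo4, Nup107, Nup155, Nup37 with 2 windows, Nup54 and Tnpo3), and 6 of the 7 with the E-box did (Ipo4, Nup188, Nup54, Nup93, Ran and Tnpo2), the other being that of Ipo7. Of the 21 windows with the NF-Y box 15 belonged to genes that rose, 2 to genes that fell and 4 to genes not called. Among all 41 windows 27 belonged to genes that rose, 4 to genes that fell and 10 to genes not called. The E2F motif was in the windows of Nup133 and Ranbp1, which rose, and of Nup210, which fell. These shares are descriptions without a test, from motifs chosen with the results known, and a match is not evidence of binding.

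Of the 44 genes 28 rose in the lymphoma lines, 5 fell and 11 were not called. Over all genes tested 63.2% were called, 30.6% as higher and 32.6% as lower in the lines, so calls were common in both directions. Calls of a 2-fold rise or more numbered 16 among the 44 genes, against 21.5% of all genes, and there was no call of a 2-fold fall, against 24.4% of all genes. The median difference was 0.75, with quartiles of 0.22 and 1.73, and that of all genes was −0.05, with quartiles of −1.04 and 0.85. Both lines lay above both splenocyte samples for 33 of the 44 genes, against 41.2% of all genes, and below both for 8, against 43.8%; Nup153, Tnpo1 and Xpo4 overlapped. Leaving out either splenocyte sample left fewer of the 44 genes called, and fewer of all genes tested. The fit assumes the lone sample left to vary like the lines. Leaving out line 2 also left fewer calls, among the 44 genes and over all genes. In RNA of whole samples, fewer cells of a type and less RNA per cell cannot be told apart.

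**Figure D1:**
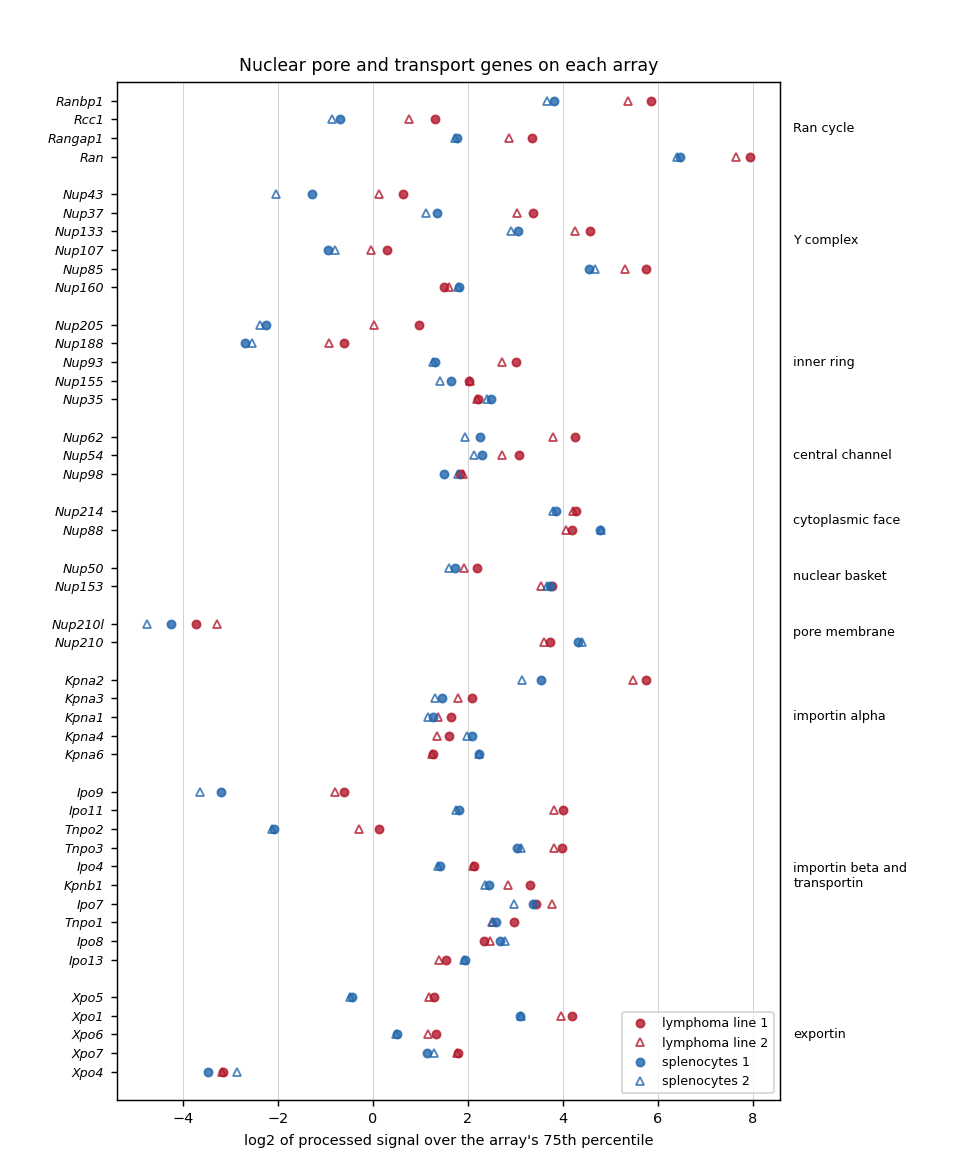
Each row is 1 gene, grouped by role, and the x axis is the log2 of the processed signal over the 75th percentile of the array. Red marks are the lymphoma lines (filled circle line 1, open triangle line 2) and blue marks the splenocyte samples (filled circle sample 1, open triangle sample 2). All 4 Ran cycle genes of the rule have both red marks to the right of both blue ones. So do 33 of the 44 genes, against 41.2% of all genes tested.

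**Figure D2:**
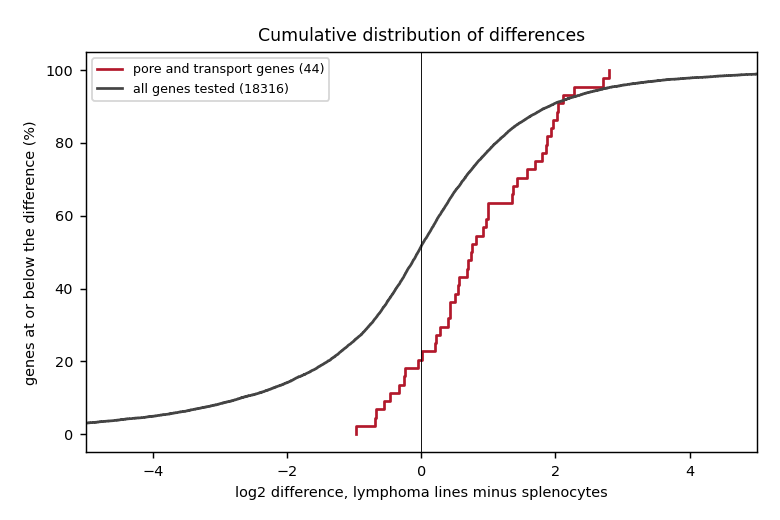
The curves give the percent of genes at or below each log2 difference, lines minus splenocytes, for the 44 pore and transport genes (red) and for all 18316 genes tested (grey). The red curve crosses 50% at 0.75 and the grey one at −0.05, and no red step lies beyond −0.98 on the left or 2.80 on the right.

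All 4 Ran cycle genes that the naming rule takes rose, with differences of 1.35 to 1.87, against 30.6% of all genes called higher. Ranbp1, which helps Rangap1 strip Ran from carriers, had relative signals of 57.7 and 41.0 in lymphoma lines 1 and 2, against 13.9 and 12.7 in splenocyte samples 1 and 2. It was 3.65-fold higher in the lines (log2 1.87 ± 0.22, adjusted p = 0.00292; probe at chr16:18153443-18153500 of mm8). Rcc1, the exchange factor that loads Ran with GTP, had 2.47 and 1.68 in the lines and 0.621 and 0.550 in the splenocytes. Both lines were above both splenocyte samples, by 3.49-fold on average (1.80 ± 0.24, adjusted p = 0.00403; chr4:131604325-131604384). Rangap1, the GTPase activator, had 10.2 and 7.30 in the lines and 3.39 and 3.29 in the splenocytes. The splenocyte samples nearly coincided, and the lines were 2.58-fold higher (1.37 ± 0.21, adjusted p = 0.00621; chr15:81532176-81532235). Ran itself had 244 and 199 in the lines and 88.6 and 84.6 in the splenocytes. It was 2.55-fold higher in the lines (1.35 ± 0.17, adjusted p = 0.00351; chr5:129337691-129337750). Line 1 was above line 2 for all 4 genes, by 0.30 (Ran) to 0.56 (Rcc1) on the log2 scale. Both lines lay above both splenocyte samples for each gene, as they did for 41.2% of all genes tested.

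Of the 6 Y complex nucleoporins, the scaffold of the outer rings, 5 rose, against 30.6% of all genes, and Nup160 was not called. Nup43, a peripheral subunit, had relative signals of 1.56 and 1.09 in the lines and 0.411 and 0.242 in the splenocytes. It was 4.12-fold higher in the lines (2.04 ± 0.34, adjusted p = 0.00768), with the widest gap between the splenocyte samples of all 44 genes. Nup37, a further peripheral subunit, had 10.2 and 8.15 in the lines and 2.53 and 2.18 in the splenocytes, a 3.89-fold rise (1.96 ± 0.19, adjusted p = 0.00179). Nup133, at the stem of the Y, had 23.6 and 19.2 in the lines and 8.32 and 7.49 in the splenocytes. The lines were 2.70-fold higher (1.43 ± 0.18, adjusted p = 0.00331). Nup107, the stem partner of Nup133, was 1.99-fold higher (0.99 ± 0.18, adjusted p = 0.00990), and Nup85, an arm subunit, 1.90-fold higher (0.92 ± 0.20, adjusted p = 0.0174). Nup160, the other large arm subunit, stood apart from them by its brightest probe at −0.25 ± 0.14 (adjusted p = 0.180), both lines just below both splenocyte samples. A dimmer Nup160 probe gave −0.20, not called. The dimmest, well above background on 3 arrays, was called higher when fitted on its own (1.35 ± 0.17, adjusted p = 0.00308). The adjusted p of Nup107 was 0.0570 without splenocyte sample 1, and that of Nup85 0.0824 and 0.0642 without sample 1 and sample 2.

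In the inner ring, which anchors the channel nucleoporins and lies against the membrane, 4 of 5 genes rose, against 30.6% of all genes. Nup205, a large scaffold subunit, had 1.94 and 1.01 in the lines and 0.211 and 0.191 in the splenocytes. It was 6.98-fold higher in the lines (2.80 ± 0.35, adjusted p = 0.00341), with the widest gap between the lines of all 44 genes, and its difference was 2.21 with normexp background correction. Nup188, the relative of Nup205 that shares its partner Nup93, had 0.653 and 0.528 in the lines and 0.153 and 0.171 in the splenocytes, a 3.63-fold rise (1.86 ± 0.18, adjusted p = 0.00175). Its dimmer probes gave 0.21, not called, and 0.67, called, and the average of its probes 0.91 (adjusted p = 0.00837). Nup93, which links the ring to the channel, had 8.02 and 6.55 in the lines and 2.47 and 2.40 in the splenocytes. The lines were 2.98-fold higher (1.58 ± 0.17, adjusted p = 0.00225). Nup155, which contacts the membrane side, was 1.42-fold higher (0.50 ± 0.16, adjusted p = 0.0481), and Nup35, a membrane-binding subunit, was not called at −0.24 ± 0.14 (adjusted p = 0.195). The call of Nup155 was lost in 8 of 14 alternatives, among them the removal of any 1 array, with adjusted p-values of 0.0953 to 0.241 over the 4 removals.

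Channel nucleoporins were uneven. Nup62, the core of the central channel, had 19.0 and 13.9 in the lines and 4.75 and 3.81 in the splenocytes, a 3.81-fold rise (1.93 ± 0.23, adjusted p = 0.00305). Nup54, its partner in the channel, was 1.62-fold higher (0.69 ± 0.19, adjusted p = 0.0320). Nup98, a repeat nucleoporin that also binds RNA export factors, was not called (0.23 ± 0.17, adjusted p = 0.298). Without line 1, splenocyte sample 1 or splenocyte sample 2 the adjusted p of Nup54 was 0.0805, 0.0887 or 0.147.

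By their brightest probes, on the cytoplasmic face Nup88 fell and its partner Nup214 was not called. Nup88 had 18.1 and 16.6 in the lines and 27.4 and 28.0 in the splenocytes, and was 1.59-fold lower in the lines (−0.67 ± 0.14, adjusted p = 0.0154). Nup214, a docking site for exportin complexes, was at 0.42 ± 0.14 (adjusted p = 0.0540). Neither basket gene was called by its brightest probe: Nup50, a cofactor of importin alpha release, was at 0.40 ± 0.17 (adjusted p = 0.106) and Nup153, the basket anchor, at −0.04 ± 0.16 (adjusted p = 0.836). With probes averaged both were called, Nup50 at 0.96 (adjusted p = 0.00789) and Nup153 at −0.76 (adjusted p = 0.0108). The Nup153 average includes a probe at −4.02 that was not well above background in the lines. The other Nup153 probes gave −0.04, 0.20 and 0.84. The pore membrane genes went opposite ways. Nup210, a membrane glycoprotein of the pore, had 13.3 and 12.2 in the lines and 20.0 and 21.2 in the splenocytes, 1.61-fold lower in the lines (−0.69 ± 0.14, adjusted p = 0.0149). Its relative Nup210l, dim on every array, had 0.0756 and 0.102 in the lines and 0.0521 and 0.0369 in the splenocytes (1.0 ± 0.26, adjusted p = 0.0287). Without splenocyte sample 1 or 2 the adjusted p was 0.0813 or 0.0922 for Nup88 and 0.0705 or 0.0950 for Nup210. Centred on the median, Nup88 was at −0.27 (adjusted p = 0.263) and Nup210 at −0.28 (adjusted p = 0.241), and with probes averaged Nup88 was at −0.41 (adjusted p = 0.0677), its second probe giving −0.15, not called. The adjusted p of Nup210l was 0.0961 without line 2 and 0.114 without splenocyte sample 2.

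**Figure D3:**
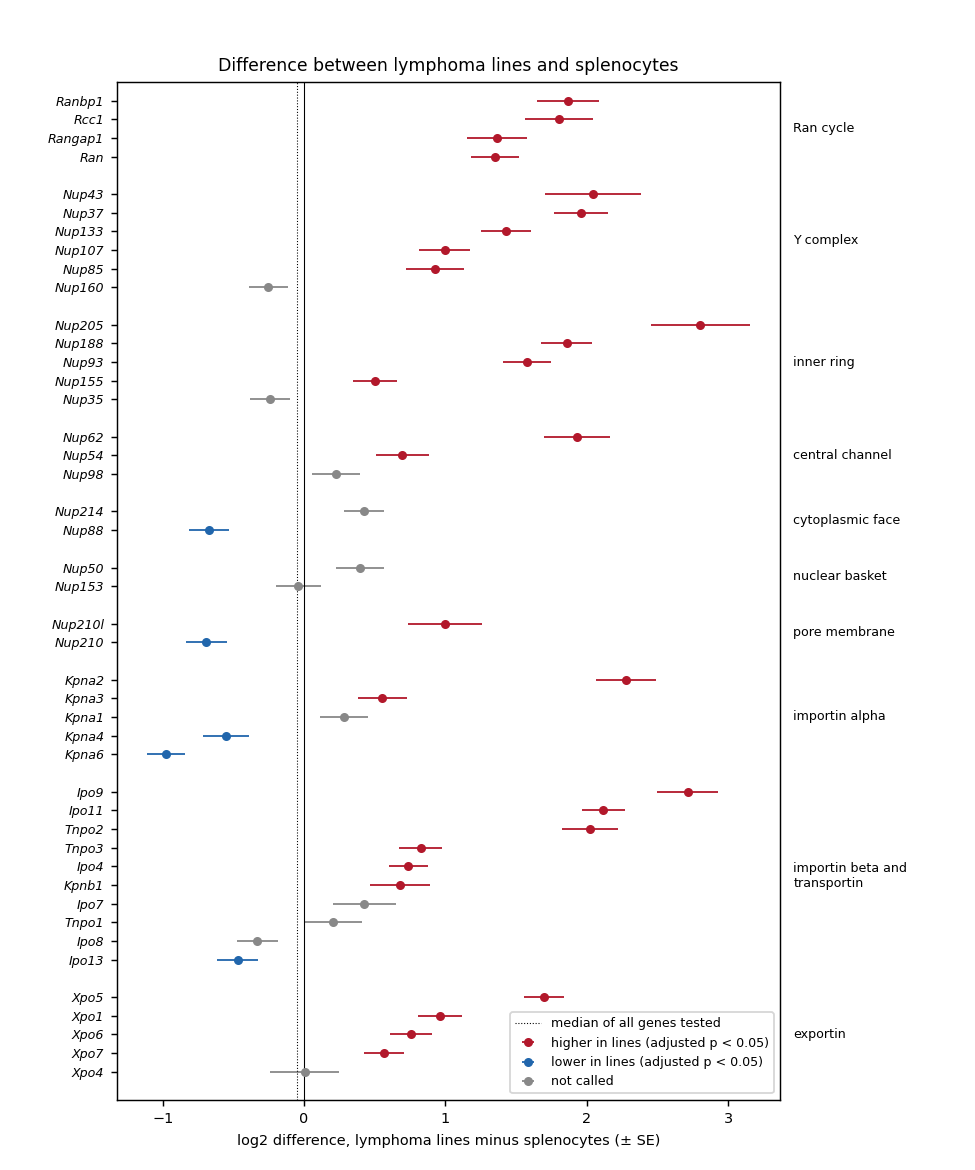
Points are the log2 differences, lymphoma lines minus splenocytes, of the 44 genes by role, and bars are the standard errors of the limma fit. Red points were called higher, blue ones lower and grey ones not called; the dotted line is the median of all genes tested. The 5 blue points are Nup88, Nup210, Kpna4, Kpna6 and Ipo13.

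The importin alpha genes, adaptors that bind the classical import signal, split in both directions: 2 rose, 2 fell and Kpna1 was not called (0.28 ± 0.17, adjusted p = 0.211). Over all genes tested 30.6% were called higher and 32.6% lower, so such a split is near that of all genes. Kpna2 had relative signals of 53.7 and 44.5 in the lines and 11.5 and 8.80 in the splenocytes. It was 4.85-fold higher in the lines (2.28 ± 0.21, adjusted p = 0.00160; chr11:106804955-106805014 of mm8), and Kpna3 was 1.47-fold higher (0.55 ± 0.18, adjusted p = 0.0489). Kpna6 had 2.39 and 2.38 in the lines and 4.67 and 4.71 in the splenocytes. Arrays of each group nearly coincided, and the lines were 1.97-fold lower (−0.98 ± 0.14, adjusted p = 0.00450; chr4:129146413-129146472). Kpna4 had 3.02 and 2.54 in the lines and 4.21 and 3.92 in the splenocytes, 1.47-fold lower in the lines (−0.55 ± 0.16, adjusted p = 0.0409). Over the removals that ended its call (each array but line 2 for Kpna3, each array but line 1 for Kpna4), the adjusted p of Kpna3 was 0.124 to 0.209 and that of Kpna4 0.101 to 0.180. Centred on the median, Kpna4 was at −0.14 (adjusted p = 0.571). Kpna6 lost its call only when its 2 probes were averaged (−0.04, adjusted p = 0.882).

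Of the 10 importin beta and transportin genes 6 rose, 1 fell and 3 were not called, against 30.6% higher and 32.6% lower over all genes. Ipo9, a carrier of core histones and actin, had 0.657 and 0.574 in the lines and 0.109 and 0.0798 in the splenocytes. It was 6.57-fold higher in the lines (2.72 ± 0.22, adjusted p = 0.00112). Ipo11, a carrier of ubiquitin-conjugating enzymes, had 16.0 and 14.0 in the lines and 3.51 and 3.38 in the splenocytes, a 4.34-fold rise (2.12 ± 0.15, adjusted p = 0.000898). Tnpo2, a transportin for RNA-binding proteins, had 1.09 and 0.810 in the lines and 0.235 and 0.227 in the splenocytes. The lines were 4.06-fold higher (2.02 ± 0.20, adjusted p = 0.00185), whereas its close relative Tnpo1 was not called, at 0.20 ± 0.20 (adjusted p = 0.421). The difference between the responses of Tnpo2 and Tnpo1 was not tested.

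Kpnb1, the importin beta that works with every importin alpha, rose less. It had 9.93 and 7.14 in the lines and 5.41 and 5.11 in the splenocytes, 1.60-fold higher in the lines (0.68 ± 0.21, adjusted p = 0.0475). Tnpo3, the carrier of splicing factors, was 1.77-fold higher (0.82 ± 0.15, adjusted p = 0.00997) and Ipo4, a histone carrier, 1.67-fold higher (0.74 ± 0.14, adjusted p = 0.0105). By their brightest probes Ipo7, a carrier of ribosomal proteins, was not called at 0.43 ± 0.22 (adjusted p = 0.163), and neither was its relative Ipo8 at −0.33 ± 0.14 (adjusted p = 0.109). A dimmer Ipo8 probe, spotted 10 times and fitted on its own, was called lower (−0.83 ± 0.15, adjusted p = 0.00796). The dimmest Ipo8 probe gave 0.23, not called. Ipo13, which carries cargo both ways, had 2.91 and 2.61 in the lines and 3.85 and 3.79 in the splenocytes, 1.39-fold lower in the lines (−0.47 ± 0.15, adjusted p = 0.0454). Without splenocyte sample 1 or 2 the adjusted p was 0.0641 or 0.0539 for Tnpo3 and 0.0609 or 0.0737 for Ipo4. It was 0.0939 to 0.170 for Kpnb1 without line 1 or either splenocyte sample, and 0.0561 to 0.186 for Ipo13 without any 1 array. Ipo13 was at −0.06 centred on the median (adjusted p = 0.784).

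Among the 5 exportin genes 4 rose, against 30.6% of all genes called higher. Xpo5, which exports microRNA precursors, had relative signals of 2.44 and 2.25 in the lines and 0.732 and 0.711 in the splenocytes, a 3.25-fold rise (1.70 ± 0.14, adjusted p = 0.00126). Xpo1, the general exportin for leucine-rich export signals, had 18.3 and 15.5 in the lines and 8.59 and 8.71 in the splenocytes. It was 1.95-fold higher in the lines (0.96 ± 0.16, adjusted p = 0.00713). The dimmer Xpo1 probes, fitted on their own, gave 2.08, called higher, and −0.99, not called. Xpo6, the actin exporter, was 1.69-fold higher (0.75 ± 0.15, adjusted p = 0.0123) and Xpo7 1.48-fold higher (0.56 ± 0.14, adjusted p = 0.0264). The second probe of Xpo7, dim on every array, gave 0.03, not called, and the call of Xpo7 was lost with probes averaged. Xpo4 had overlapping groups by its brightest probe, with 0.112 and 0.110 in the lines and 0.0902 and 0.136 in the splenocytes (0.00 ± 0.24, adjusted p = 0.989). Its other probe had 0.112 and 0.110 in the lines and 0.0554 and 0.0531 in the splenocytes. Fitted on its own, that probe was called higher (1.03 ± 0.14, adjusted p = 0.00392). Without splenocyte sample 1 or 2 the adjusted p of Xpo6 was 0.0677 or 0.0745, and that of Xpo7 was 0.0572 to 0.151 without any 1 array.

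The 44 genes carried 96 probes on the array, of which 92 were bright enough to be tested. Fitted on their own, with adjustment over 27404 probes, 55 were higher, 11 lower and 26 not called; of all probes 32.3% were higher and 32.5% lower. Of the 28 genes with several tested probes 10 had every probe called higher (Ipo4, Kpna2, Kpnb1, Nup155, Nup205, Nup43, Nup54, Rangap1, Tnpo2 and Tnpo3) and none had every probe called lower. The probes of Kpna2 gave 2.28 and 2.62, those of Nup205 2.80 and 2.49 and those of Tnpo2 2.02 and 2.01. Those of Rangap1 were farther apart, at 1.37 for the brighter and 2.82 for the dimmer probe. The probes of Kpnb1 gave 0.68 and 0.64, both called.

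Probes went both ways, each with calls, in Ipo11, Ipo7, Nup153 and Nup98. The Ipo11 probe for transcript AK088316 had 0.151 and 0.111 in the lines and 0.368 and 0.800 in the splenocytes (−2.07 ± 0.43, adjusted p = 0.0133), while 3 probes for NM_029665 gave 2.12, 2.74 and a rise of at least 5.14-fold. The Nup153 probe for AK035606 was not well above background in the lines and was at least 6.97-fold lower there. That probe was tested because both splenocyte samples were above background, and its call used the line values as measured, not the bound. The other Nup153 probes gave −0.04, 0.20 and 0.84. The Nup98 probe for AK030935 had 0.0287 and 0.0496 in the lines and 0.305 and 0.299 in the splenocytes (−3.00 ± 0.30, adjusted p = 0.00171). A probe of NM_022979 was called higher at 1.0 ± 0.27, while other probes of that transcript gave −0.16 and −0.04, neither called. For Ipo7 the probe for AK048477 was lower (−1.08 ± 0.27, adjusted p = 0.0228) and 2 probes for NM_181517 were higher, at 0.66 and 1.02. In each of these genes the lower probe matched a cDNA accession that none of its other tested probes carried, and it lay on the strand of the gene. Nup50 gave 0.40 by its brightest probe, spotted 10 times with an SD of 0.0213 to 0.0378 within an array, and 0.63 and 1.86 by its other probes, both called. For Kpna6 the second probe, dim on every array, gave 0.89 ± 0.40 (adjusted p = 0.112), against −0.98 by the brightest. The average over probes was 2.09 for Rangap1, 1.28 for Nup155 and 1.51 for Ipo11, each still called higher, and −0.40 for Nup98, not called.

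**Figure D4:**
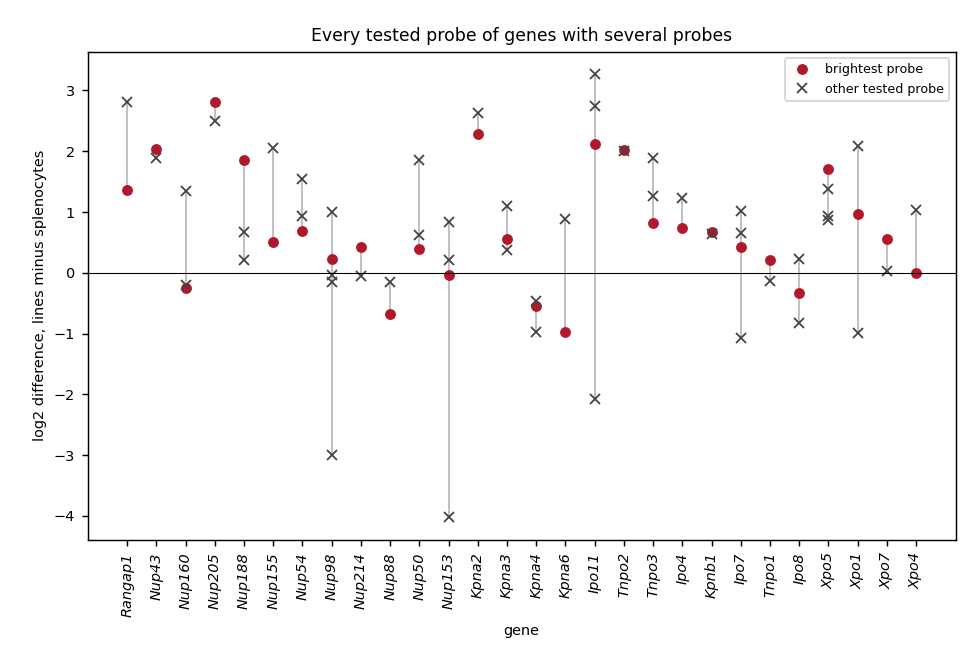
Each column is 1 of the 28 genes with several tested probes, and marks are log2 differences, lines minus splenocytes, of its brightest probe (red circle) and its other tested probes (grey crosses), joined by a line. Crosses far below 0 belong to Nup153 (−4.02), Nup98 (−3.00) and Ipo11 (−2.07).

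Line 1 was above line 2 for 38 of the 44 genes (86.4%), against 50.1% of all genes tested. The median of line 1 minus line 2 was 0.24, against 0.00 over all genes, and the median size of the gap was 0.27, against 0.23. Splenocyte sample 1 was above sample 2 for 32 genes (72.7%), against 48.8% of all genes, with a median of 0.06 and a median size of 0.11, against 0.16. The lines differed most in Nup205 (0.94), Rcc1 (0.56), Nup43 (0.52) and Ranbp1 (0.49), whereas Nup210l (−0.43) and Ipo7 (−0.34) were higher in line 2. With 1 array a line, these differences carry no test.

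**Figure D5:**
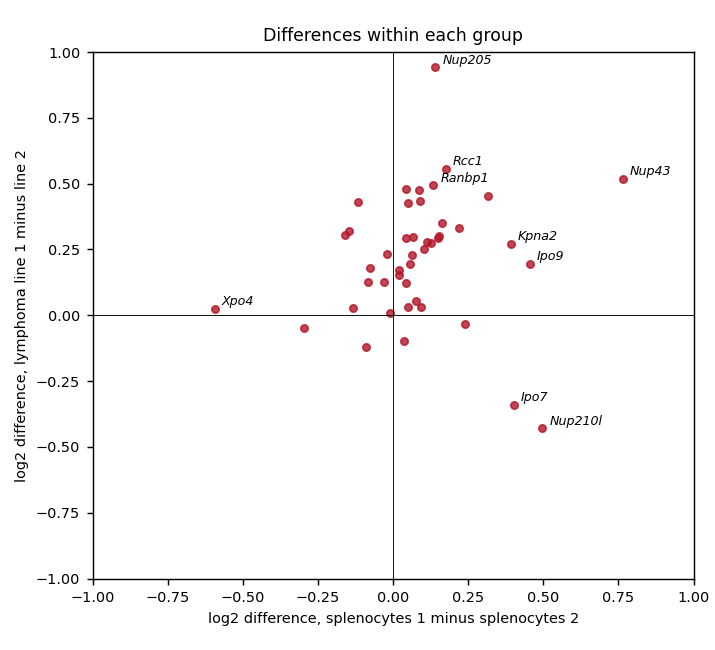
Each point is 1 of the 44 genes. The y axis is the log2 value of lymphoma line 1 minus line 2 and the x axis that of splenocyte sample 1 minus sample 2; 38 points lie above 0 on the y axis, and the names mark the widest gaps.

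A further 41 genes of nuclear transport that the naming rule does not take were examined, and 37 were bright enough to be tested. Of these 22 rose, 3 fell and 12 were not called, with a median difference of 0.89. Over all genes tested 30.6% were called higher and 32.6% lower, with a median of −0.05. The other pore proteins had 7 rises, 1 fall and 4 without a call among 12, and the other carriers 4 rises and no fall among 6. Genes of mRNA export had 8 rises and 1 fall among 15. Of the 4 tested genes listed with the Ran cycle outside the rule, Nutf2, Ranbp3 and Rcc2 rose and Rangrf fell. A place of Rcc2 in the Ran cycle was not tested. The highest rise was that of Nxt2, a cofactor of mRNA export, with 1.30 and 1.17 in the lines and 0.143 and 0.160 in the splenocytes (8.16-fold, adjusted p = 0.000415). Xpot, the tRNA exporter, had 23.3 and 23.0 in the lines and 4.27 and 3.30 in the splenocytes (6.18-fold, adjusted p = 0.000865). Thoc5, a subunit of the THO complex in mRNA export, had 4.25 and 3.37 in the lines and 0.954 and 1.06 in the splenocytes (3.77-fold, adjusted p = 0.00173).

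Rangrf, a Ran release factor, had 0.0606 and 0.0905 in the lines and 2.10 and 1.96 in the splenocytes, 27.4-fold lower in the lines (−4.78 ± 0.24, adjusted p = 0.000408). Its probe carries an older name on the array and was matched by accession. Nxf2, a relative of the mRNA export receptor, was not well above background in the lines and was at least 2.58-fold lower there. Nxf2 was tested because both splenocyte samples were above background, and its call used the line values as measured, not the bound. Ranbp2, the filament nucleoporin that holds Rangap1 at the pore, had 7.82 and 7.67 in the lines and 12.7 and 12.5 in the splenocytes, 1.63-fold lower in the lines (−0.70 ± 0.14, adjusted p = 0.0118). Ranbp3l, Ranbp17, Nxf3 and Nxf7 were too dim to be tested.

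Several facts of the whole arrays stand beside these results. All 12 genes of a cell division list rose, with a median difference of 3.01 and a summed relative signal of 271 and 232 in the lines and 62.1 and 42.0 in the splenocytes; their part in the results was not tested. All 8 B cell markers were above background in both lines, 6 of them fell, and Ms4a1 and Cd79a were not called (sums 439 and 429 in the lines, 748 and 951 in the splenocytes). Of 8 markers of macrophages, monocytes and neutrophils 7 fell, Lyz1, Lyz2 and S100a8 being not well above background in either line, while Adgre1 rose and made up nearly all of sums of 35.4 and 35.8 in the lines, against 15.9 and 10.5 in the splenocytes. Of 6 tested T cell markers 3 fell, Cd8a being not well above background in the lines, and Cd3g rose (sums 6.37 and 7.70 in the lines, 6.60 and 4.84 in the splenocytes). Markers of NK cells had 1 rise and 3 falls among 4 tested (sums 0.567 and 0.431 in the lines, 0.835 and 0.800 in the splenocytes), and erythroid markers 2 falls among 3 (2.35 and 0.892 in the lines, 5.64 and 5.72 in the splenocytes). Dendritic cell markers had 2 rises and 1 fall among 3 (0.306 and 0.542 in the lines, 1.04 and 0.994 in the splenocytes), and those of stroma and endothelium 1 rise and 1 fall among 3 (0.374 and 0.364 in the lines, 1.57 and 1.54 in the splenocytes). The part of these cell types in the results was not tested. The 75th percentile of processed signal was 1122 and 1315 in the lines, and 1078 and 514 in the splenocytes, and 24974 to 27319 probes of an array were well above background. The small number of arrays limits the precision of every value.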

How the data were processed

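Total RNA was labelled with Cy3 and hybridised to 1-colour Agilent mouse arrays, 1 array a sample (43379 non-control spots, 41174 probes, annotation of build mm8). Images were read with Feature Extraction 9.5.1.1 per the file headers. The processed signal deposited by the authors is an intensity, corrected for background within the array and not scaled between arrays, and the other columns used are flags. The deposited table of the series holds the same intensity times 1 factor an array (0.961 and 0.820 for the lines, 1 and 2.10 for the splenocytes), read here from the values. Its 75th percentile was 1078 on every array and its column medians were 41.6 and 46.1 for the lines and 58.7 and 57.5 for the splenocytes.

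Spots with an outlier flag on at least 1 array were dropped, so that 153 probes were lost, and the spots of a probe were averaged. Each array's processed signal was divided by its 75th percentile and taken to log2. Tests covered the probes that 2 or more of the 4 arrays showed well above background, and the brightest tested probe stood for a gene. The comparison of lines with splenocytes was made in limma 3.58.1 (lmFit, eBayes; R 4.3.3, with its data.table package in version 1.17.8), two-sided, with 2 residual and 2.31 prior degrees of freedom, after the script was tested on simulated data. A bound ("at least") sets the bright group's mean against the lowest signal well above background on each array of the dim group, or the probe's own where that is higher. The members and gene lists were chosen with earlier results of these data known. Values of every array are given for the Ran cycle genes and for called genes past 2-fold; any other member may be named by its difference, and values of every array for Nup88, Nup210, Nup210l, Kpna4, Kpna6, Kpnb1, Ipo13, Xpo1 and Xpo4 were added after they were seen. Of the other transport genes the 3 largest rises and falls are named with values. The replicate numbers of the labels do not state a pairing, and deviations of same-numbered arrays correlated at 0.0136, so the arrays were not paired. Alternatives were other scalings, background correction, filters, probe rules, the deposited table, removal of each array and a replicate block. The fit of each probe was added after seeing the data, and the NRF1 motif was shortened to its core then.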

Additional observations from a re-analysis of the deposited data

How the results depend on the processing

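Over 14 alternatives 17 of the 28 rises were called every time, among them all 4 Ran cycle genes, Kpna2, Nup205 and Xpo1, and none of the 5 falls was. No called member changed direction, and 10 of the 11 members without a call gained one under at least 1 alternative, Tnpo1 being the exception. Removal of 1 array in turn gave 18 to 25 rises, 1 to 4 falls and a median difference of 0.69 to 0.86, and it ended calls more often where a splenocyte sample was removed (18 rises and 1 fall each). The number of falls was 1 with arrays centred on the median and 8 with normexp background correction. It was 1 without a filter on dim probes, where 27661 genes were tested, and 3 with the replicate block, which gave 23 rises. Over all genes the falls under these settings numbered 4360, 5912, 5856 and 5579, against 5973 in the main fit. The replicate block gave 5225 rises over all genes, against 5610. The members' median was 1.15 centred on the median, 0.65 with quantile normalization and 0.62 with the percentile taken over bright probes. It was 0.62 with normexp and 0.94 with probes averaged. The causes were not tested. The first 4 of these settings gave the median of all genes a shift of 0.41, 0.14, −0.13 and 0.09, with the members' median 0.79, 0.55, 0.79 and 0.58 above it. Averaging probes gave a shift of −0.003 and put the members' median 0.99 above it. Centring on the median made 63.2% of all called genes higher, against 48.4%. Members without a call changed sign: Nup160 (0.15), Nup35 (0.17), Nup153 (0.37) and Ipo8 (0.075) centred on the median, Nup160 (0.30) and Nup98 (−0.40) with probes averaged, and Xpo4 (−0.12) with the percentile over bright probes. Removal of 1 array did the same for Nup153 (−0.156 to 0.0743, above 0 without line 2), Tnpo1 (−0.0135 to 0.422, below 0 without line 1) and Xpo4 (−0.293 to 0.302, below 0 without line 1 or splenocyte sample 1). A slide or scan block could not be run, since 1 slide and 1 scan hold all arrays. Every member was above background on every array, so signal over background ended no member's test.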
